A study of Sus scrofa with 57 samples.

Results

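The genes described here are those of the proteasome, chosen by name. Of 25285 pig genes in the expression tables, 40 carry a gene name made of PSM, a letter from A to G and a number, and these 40 entries hold 37 different names. By the role of their proteins, 12 entries belong to the core particle (PSMA and PSMB genes), 21 to the regulators that bind it (PSMC, PSMD, PSME3, PSME4 and PSMF1), 4 to the interferon-inducible or immune set (PSMB8 with 2 entries, PSME1 and PSME2) and 2 to its assembly chaperones (PSMG3 and PSMG4). The remaining entry, PSMC3IP, encodes a partner of a regulatory subunit and not a subunit, and it was taken in by its first letters alone.

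The proteasome is the protease that breaks down most short-lived and damaged proteins of a cell. Its core particle is a barrel of stacked rings, in which alpha subunits form the outer gates and beta subunits hold the cutting sites inside. A regulatory particle on the end of the barrel recognises ubiquitin, unfolds the tagged protein with a ring of ATPases and feeds it inward. Interferons induce the PSMB8, PSMB9 and PSMB10 subunits, which replace the ordinary catalytic ones, and the PA28 cap made of PSME1 and PSME2, and this form supplies peptides for presentation on class I molecules.

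Total RNA was sequenced from mature adipocytes, the fat-filled cells that float after collagenase digestion, from retroperitoneal fat of 5 lean and 5 obese male pigs. By the paper, all were F2 animals of an intercross of Duroc pigs and Göttingen minipigs, from a larger F2 population. They were kept in the same housing with food at will and were taken from the lean and obese ends of the population, with no treatment and no engineered allele. Age at slaughter varied between the pigs, and the labels give none for a pig. Lean and obese are therefore extremes of naturally varying fatness in a segregating cross, so that the groups can differ in breed alleles as well as in fat. The lean pigs are pig-402, pig-407, pig-413, pig-525 and pig-577, and the obese pigs are pig-433, pig-473, pig-524, pig-529 and pig-572, always given in this order below.

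Levels are FPKM, sequenced fragments relative to the length of the transcript and to the size of the library, so that levels can be set side by side between genes. They were divided by a size factor per library (0.691 to 1.23), and the 2 libraries of pig-572 were averaged. Over the 34 proteasome entries tested, these libraries had a median absolute difference of 0.0575 on the log2 scale, against 0.114 to 0.430 between libraries of different pigs. Read totals cannot be read from FPKM. The libraries held 8950 to 10291 genes at an FPKM of at least 1, and the bounds that cufflinks set around such a gene reached a median of 7.94% to 9.54% to either side. The adipocyte genes named in the tables, 7 of a list of 15, were all well above the filter. Among them PLIN1, which coats lipid droplets, was at a mean of 289 FPKM in lean and 340 FPKM in obese pigs. The 7 did not move together: 4 had a log2 fold change, obese minus lean, above 0 and 3 below 0. At an unadjusted p under 0.05 in limma, 1 was higher in obese pigs and 0 lower (14.3%, beside 20.8% of all genes), and 0 passed after adjustment.

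Proteasome genes were abundant in the adipocytes. The 9 core entries tested had a median level of 73.5 FPKM, above 92.7% of all genes tested, and the 21 regulatory entries a median of 17.5 FPKM, while the median over all 10246 genes tested was 5.14 FPKM. Filtering at a mean FPKM of 1 left out 6 of the 40 entries. PSMA8, which is known from testis, PSMB11, known from the thymus, and the PSMA5 entry on chromosome 14 were listed at 0 in every library, both PSMB8 entries and PSMC3IP lay under 1 FPKM, and none of these was tested. The names PSMB5 and PSMB10 do not occur in the tables, so that the catalytic subunit PSMB5 has no value here. PSMA4, PSMB2, PSMB3, PSMC4, PSMD2, PSMG1 and PSMG2 are likewise not names in the tables, and PSMC1 and PSMD5, which a reference list alone names, are outside the rule, so that class sums and medians cover the named and tested entries only. PSMB8, PSMD10 and PSMF1 have 2 entries each that followed each other closely from pig to pig, and the division of their reads between near-identical copies is uncertain.

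**Figure D1:**
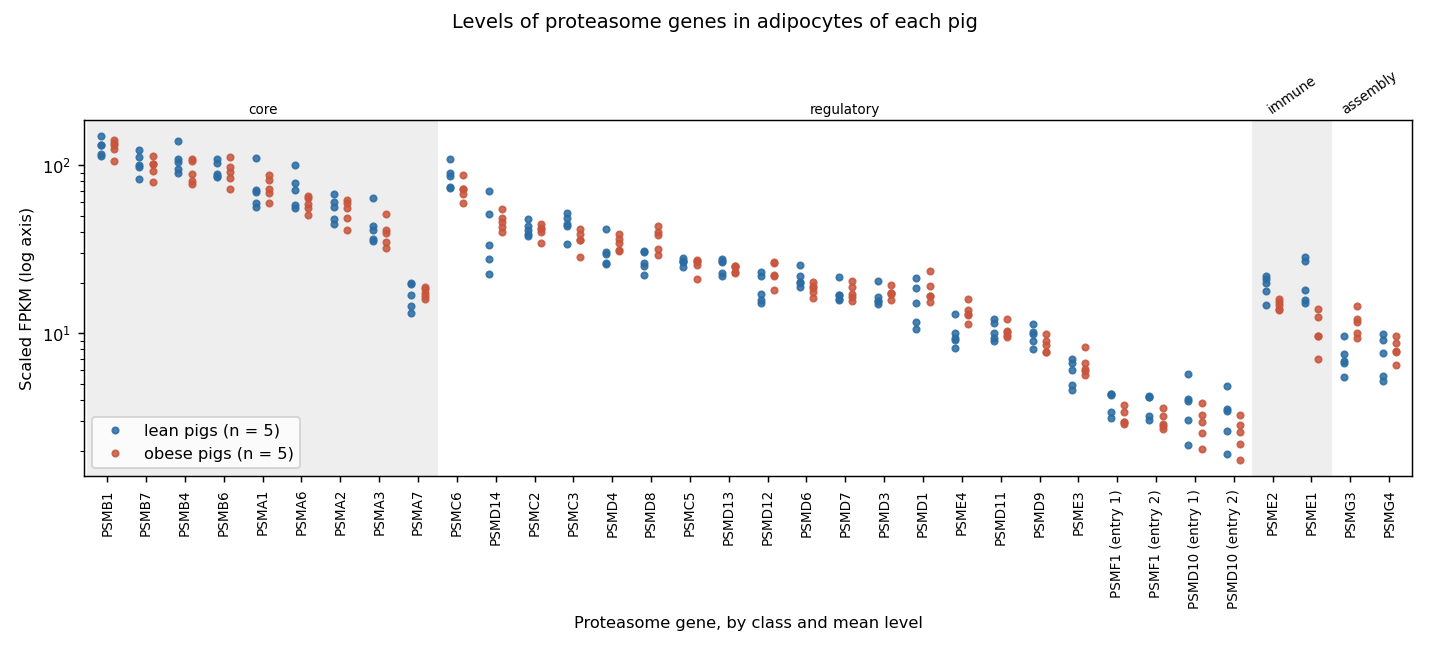
Scaled FPKM (log axis) of the 34 proteasome entries tested, by class and mean level, with 1 point per pig (blue lean, red obese, 5 pigs each). The core entries run from 128 FPKM (PSMB1) to 17.1 FPKM (PSMA7), and the points of lean and obese pigs overlap in every column but that of PSME1.

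Obese and lean pigs were compared over pigs with limma on log2 of the FPKM plus 1, with Benjamini-Hochberg adjustment over all 10246 genes. After adjustment 0 of the 34 proteasome entries passed the threshold of 0.05, where 0.00976% of all genes did (1 gene). At an unadjusted p under 0.05 in limma, 6 of the 34 entries (17.6%) were called, where 20.8% of all genes were. Of these, 3 were higher in obese pigs (PSMG3, PSME4 and PSMD8), beside 10.6% of all genes in that direction, and 3 were lower (PSME1, PSME2 and a PSMF1 entry), beside 10.2% of all genes. Lean and obese pigs did not overlap in 1 of the 34 entries (PSME1), beside 4.13% of all genes. Without lean pig-525, 6 entries were higher at that p, beside 10.3% of all genes in that fit. Without lean pig-402, 7 were lower and 4 did not overlap, beside 13.5% and 10.4% of all genes. The shares of entries called with all pigs lay near or under those of all genes. The median log2 fold change, obese minus lean, was -0.05 over the 34 entries and -0.0013 over all genes, and the median absolute log2 fold change was 0.19 over the entries and 0.18 over all genes.

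The classes differed in their medians, which are given without a test because the members are not replicates. The median log2 fold change was -0.05 for core, -0.04 for regulatory, -0.62 for immune and 0.37 for assembly entries, the last 2 classes having 2 tested entries each. The immune pair was the class with both entries lower at an unadjusted p under 0.05, and the core was the class with none called in either direction.

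**Figure D2:**
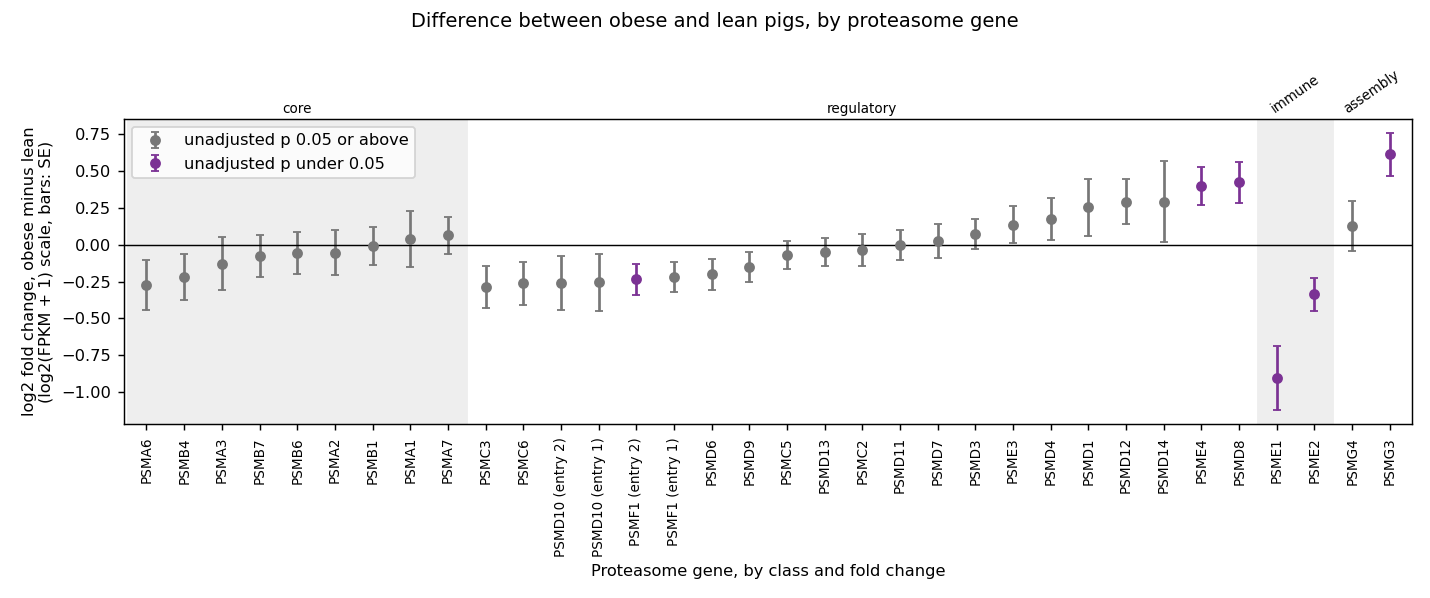
Log2 fold change of each tested entry, obese minus lean, on the log2(FPKM + 1) scale with its SE from limma (5 pigs per group), ordered within each class. The 6 purple points have an unadjusted p under 0.05, PSME1 lies lowest at -0.91 and PSMG3 highest at 0.61, and the core entries lie between -0.27 and 0.06.

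No core gene was called between the groups. Summed over its 9 tested entries, the level in lean pigs was 651, 587, 630, 881 and 724 FPKM, and in obese pigs 537, 725, 654, 674 and 667 FPKM. Lean pig-525 lay highest and obese pig-433 lowest, and the groups overlapped, with means of 695 ± 115 FPKM (SD, n = 5) in lean and 651 ± 69.1 FPKM (SD, n = 5) in obese pigs. PSMB6, the beta subunit with caspase-like activity, stood at 85.8, 84.8, 88.8, 109 and 102 FPKM in lean and 71.7, 84.4, 96.9, 90.8 and 112 FPKM in obese pigs, and its log2 fold change was -0.05 ± 0.14 (SE). PSMB7, which carries the trypsin-like activity, stood at 99.8, 82.8, 97.6, 122 and 111 FPKM in lean and 79.0, 114, 91.8, 101 and 102 FPKM in obese pigs, with a log2 fold change of -0.07 ± 0.14 (SE). In both genes the lowest value belonged to obese pig-433 and the ranges of the groups overlapped almost wholly.

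The structural beta subunits PSMB1 and PSMB4, which line the barrel without cutting, were with PSMB7 the 3 highest members. PSMB1 stood at 132, 116, 114, 148 and 131 FPKM in lean and 106, 136, 124, 142 and 131 FPKM in obese pigs, and PSMB4 at 89.7, 95.3, 104, 140 and 109 FPKM in lean and 80.9, 108, 88.7, 105 and 76.8 FPKM in obese pigs. Their log2 fold changes were -0.01 ± 0.13 and -0.22 ± 0.16 (SE). The alpha subunits of the outer rings ranged in mean level from 73.5 FPKM (PSMA1) to 17.1 FPKM (PSMA7), and of the 9 core entries 7 had a log2 fold change below 0 and 2 above 0, with adjusted p-values of limma from 0.369 to 0.975. The subunit PSMA5 has a second entry on chromosome 4 that the tables leave unnamed and a reference list names, and there it stood at 67.6 ± 21.3 FPKM in lean and 68.4 ± 11.7 FPKM in obese pigs (SD, n = 5 each).

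Much of the spread of the core was shared between pigs. Pig-525 had the highest value of all 10 pigs in 8 of the 9 core entries and pig-433 the lowest in 6. With the group means taken out, the correlation of 2 core entries over the 10 pigs had a median of 0.72 over 36 pairs. It was 0.22 over 210 pairs of regulatory entries, 0.37 between core and regulatory entries, and -0.0012 over all pairs of genes tested. These are descriptions of values that share libraries and size factors. Each of the 9 core entries correlated with the mean of the other core entries at 0.63 or above. Some regulatory entries reached that level with the core mean too, among them PSMD4 (0.88), PSMC6 (0.86) and PSMD14 (0.73). In contrast, PSME1 (-0.36), PSMG3 (-0.51), PSMG4 (-0.43), both PSMF1 entries (-0.26 and -0.31) and PSMD11, a lid subunit of the regulatory particle (-0.59), had negative values.

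**Figure D3:**
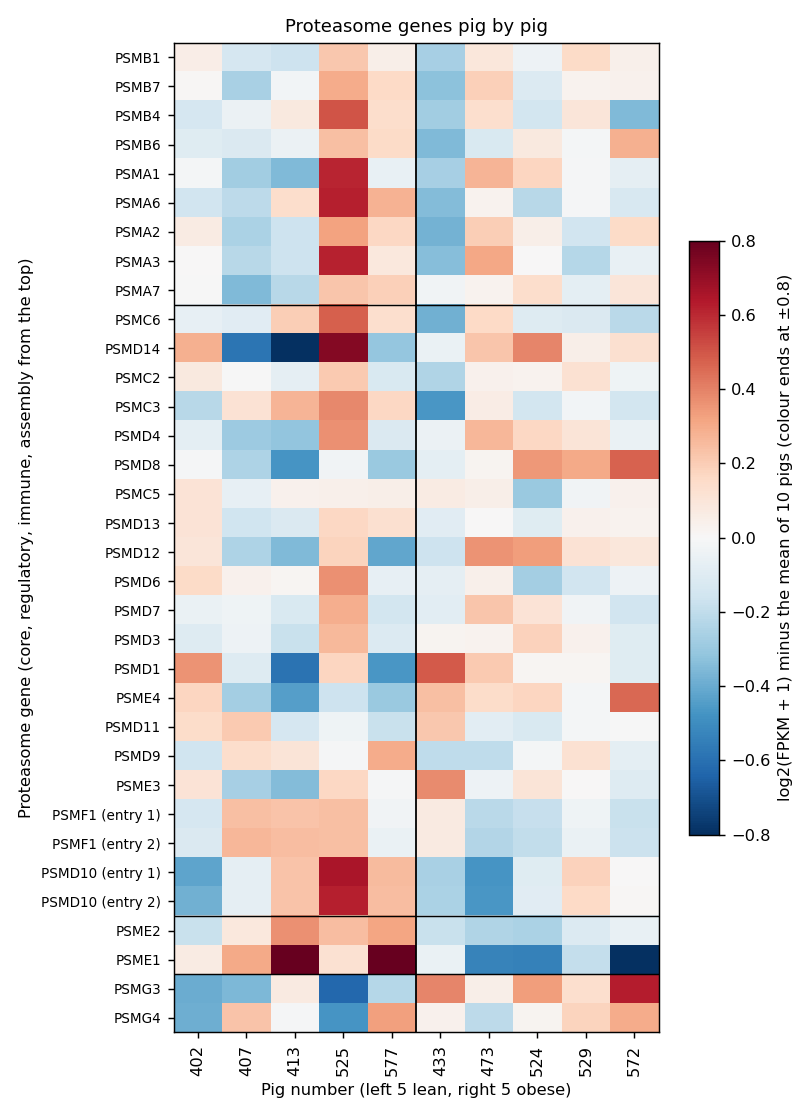
Level of each tested entry in each pig as log2(FPKM + 1) minus the mean of the 10 pigs, with lean pigs left of the vertical line and obese pigs right of it, and horizontal lines between core, regulatory, immune and assembly entries. Red is above and blue below the mean, the column of lean pig-525 is red in most core rows, that of obese pig-433 is blue, and the PSME1 row runs from red in lean to blue in obese pigs.

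Among the 21 regulatory entries, 2 were higher and 1 was lower in obese pigs at an unadjusted p under 0.05 in limma (14.3%, beside 20.8% of all genes), and 12 had a log2 fold change below 0 and 9 above 0. Their summed level was 466, 420, 421, 570 and 437 FPKM in lean and 421, 491, 471, 465 and 455 FPKM in obese pigs, with means of 463 ± 62.6 and 461 ± 25.5 FPKM (SD, n = 5 each). The groups overlapped, and pig-525 lay highest here as well.

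PSMD8, a subunit of the lid that positions the enzyme removing ubiquitin chains, stood at 30.9, 26.0, 22.1, 30.5 and 25.1 FPKM in lean and 29.4, 31.6, 39.8, 38.6 and 43.5 FPKM in obese pigs. Its log2 fold change was 0.42 ± 0.14 (SE), with an adjusted p of 0.163 in limma, and 4 of the 5 obese pigs lay above every lean pig. PSME4 encodes PA200, a cap of the core particle in the nucleus linked to the breakdown of acetylated histones. It stood at 13.0, 9.31, 8.16, 10.1 and 9.10 FPKM in lean and 13.7, 12.8, 13.0, 11.3 and 16.1 FPKM in obese pigs, with a log2 fold change of 0.40 ± 0.13 (SE) with an adjusted p of 0.156 in limma. Lean pig-402 was the one lean pig within the range of the obese pigs.

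PSMF1 encodes PI31, a protein that binds the core particle and inhibits it in the test tube. Its entry ENSSSCG00000025875 stood at 3.03, 4.25, 4.18, 4.15 and 3.21 FPKM in lean and 3.58, 2.71, 2.81, 3.20 and 2.87 FPKM in obese pigs, with a log2 fold change of -0.24 ± 0.10 (SE) with an adjusted p of 0.230 in limma. The other entry, ENSSSCG00000020887, had a log2 fold change of -0.22 ± 0.10 (SE) and did not reach an unadjusted p of 0.05. The groups overlapped in both entries. The lowest tested members were the 2 entries of PSMD10 (gankyrin), a chaperone of the regulatory particle, at means of 3.36 and 2.90 FPKM, beside PSMF1 entry ENSSSCG00000025875 at 3.397 FPKM. PSMD10 entry ENSSSCG00000025256 stood at 2.17, 3.03, 3.97, 5.69 and 4.06 FPKM in lean and 2.55, 2.06, 2.97, 3.82 and 3.25 FPKM in obese pigs. Entry ENSSSCG00000012568 stood at 1.91, 2.62, 3.45, 4.87 and 3.52 FPKM in lean and 2.19, 1.76, 2.57, 3.25 and 2.83 FPKM in obese pigs. The log2 fold changes of these PSMD10 entries were -0.26 ± 0.19 and -0.26 ± 0.18 (SE), and the groups overlapped in both.

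The other regulatory entries were not called. The ATPase subunits PSMC2, PSMC3, PSMC5 and PSMC6 had log2 fold changes from -0.29 (PSMC3) to -0.04 (PSMC2). PSMD14, the metalloprotease that removes ubiquitin chains at the entrance, had the widest SE of the members: it stood at 51.0, 27.5, 22.5, 70.01 and 33.5 FPKM in lean and 40.2, 48.8, 54.9, 43.1 and 45.7 FPKM in obese pigs, with a log2 fold change of 0.29 ± 0.27 (SE). The obese pigs lay within the range of the lean pigs. PSMD4, a receptor for ubiquitin, was at 30.7 ± 6.50 FPKM in lean and 34.3 ± 3.396 FPKM in obese pigs, and PSME3, the nuclear PA28 gamma cap, at 5.84 ± 1.06 and 6.51 ± 1.03 FPKM (SD, n = 5 each).

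The PA28 cap was the class furthest from 0. PSME1 (PA28 alpha; Sscrofa10.2 chr7:80433126-80435858) stood at 15.2, 18.0, 28.4, 15.8 and 26.7 FPKM in lean and 13.9, 9.66, 9.59, 12.5 and 7.01 FPKM in obese pigs. All 5 obese pigs lay below all 5 lean pigs, and the lean pigs themselves spread widely, with pig-413 and pig-577 above the others. The means were 20.8 ± 6.28 and 10.5 ± 2.697 FPKM (SD, n = 5 each), a log2 fold change of -0.91 ± 0.22 (SE) with an adjusted p of 0.109 in limma.

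PSME2 (PA28 beta) lies beside it at chr7:80425840-80429278 and stood at 14.6, 17.7, 21.8, 20.0 and 21.0 FPKM in lean and 14.6, 13.9, 13.8, 15.3 and 15.9 FPKM in obese pigs. Lean pig-402 lay within the range of the obese pigs and the other lean pigs above it. The means were 19.0 ± 2.89 and 14.7 ± 0.906 FPKM (SD, n = 5 each), a log2 fold change of -0.34 ± 0.11 (SE) with an adjusted p of 0.169 in limma. Summed, the PA28 genes ranged from 29.8 to 50.2 FPKM in lean and from 22.9 to 28.5 FPKM in obese pigs. The ratio of PSME1 to PSME2 was 1.08 ± 0.21 in lean and 0.718 ± 0.188 in obese pigs (SD, n = 5 each), with overlap between the groups.

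The catalytic immune subunits were scarce. PSMB8, which takes the place of PSMB5, had a level over both entries of 0.705, 1.16, 0.456, 1.63 and 0.556 FPKM in lean and 0.555, 0.350, 0.315, 0.459 and 0.357 FPKM in obese pigs. The groups overlapped, and the highest pigs were pig-525 and pig-407, not pig-413 and pig-577, which were highest for PSME1. LMP2, the older name of PSMB9, which takes the place of PSMB6, is not caught by the naming rule and is given for comparison: over both of its entries it stood at 0.724, 0.766, 0.304, 1.13 and 0.494 FPKM in lean and 0.385, 0.241, 0.155, 0.135 and 0.204 FPKM in obese pigs. Lean pig-413 lay within the range of the obese pigs. In the fit without a filter on low values, the PSMB8 entries had log2 fold changes of -0.24 and -0.27 with adjusted p-values of 0.278 and 0.290 in limma, and the LMP2 entries -0.15 ± 0.064 and -0.36 ± 0.089 (SE) with adjusted p-values of 0.304 and 0.170 in limma. The bounds of cufflinks reached up to 107% of a value to either side for PSMB8, and up to 130% and 198% for the LMP2 entries.

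**Figure D4:**
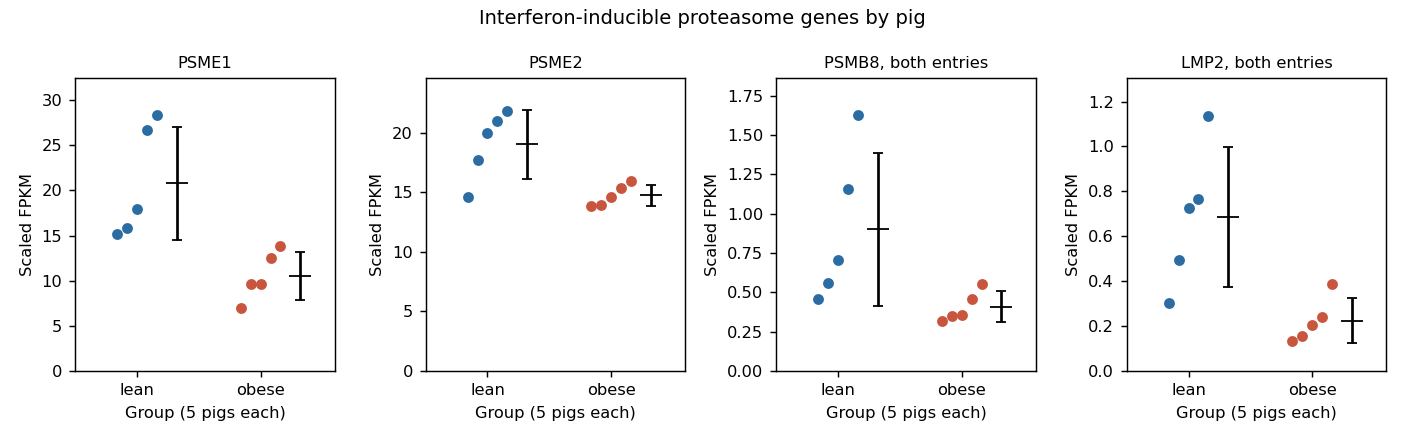
Scaled FPKM of PSME1, PSME2, PSMB8 and LMP2 (PSMB9) in 5 lean and 5 obese pigs, each axis starting at 0, with points for pigs sorted by level and bars for the mean ± SD. PSME1 is the panel in which all obese pigs lie below all lean pigs, and PSMB8 and LMP2 stay under 2 FPKM.

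The annotated gene FAM158A (chr7:80430403-80435921) spans the whole PSME1 locus. The counting is not stated to use strand, so that reads of the shared stretch cannot be told apart, and FAM158A itself stood at 3.99 ± 0.350 FPKM in lean and 3.76 ± 0.147 FPKM in obese pigs (SD, n = 5 each). Likewise IFITM1 spans the whole PSMD13 locus, and PSMD10, PSMD14 and PSMC5 share part of theirs with an annotated gene. White blood cells also make PA28 and the immune subunits. Of 17 entries for macrophage and leukocyte markers, 4 passed the filter and 0 had an unadjusted p under 0.05 or an adjusted p under 0.05 in limma. All 4 had a log2 fold change below 0, with a median of -0.12. The summed level of the list was 9.44 to 24.1 FPKM in lean and 12.3 to 25.2 FPKM in obese pigs. PTPRC, the pan-leukocyte marker CD45, averaged 0.420 and 0.430 FPKM, and CD163 was listed at 0 in all libraries. Both lay under the filter and were not tested. In bulk RNA, fewer cells of a type and less RNA per cell cannot be told apart.

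Of the 13 entries tested for genes that respond to tissue dissociation, 2 were higher and 5 lower in obese pigs at an unadjusted p under 0.05 in limma (53.8%, beside 20.8% of all genes), and 0 passed after adjustment. The 2 higher were both entries of HSPB1 (log2 fold changes 1.20 and 1.21). The 5 lower were FOS (-1.32), JUNB (-1.25), JUN (-1.02), IER2 (-1.02) and IER3 (-1.89). Of the 13, 8 had a log2 fold change below 0 and 5 above 0, so that a sum joins opposite directions. The summed level was 853 to 2022 FPKM in lean and 850 to 1679 FPKM in obese pigs. Of 12 entries for fibroblasts and preadipocytes, 8 were tested and 4 lay under 1 FPKM. Of these 8, 0 were higher and 1 lower (DPT) at that p (12.5%), all 8 had a log2 fold change below 0, and 0 passed after adjustment in limma. The summed level of all 12 was 250.3 to 801 FPKM in lean and 260 to 627 FPKM in obese pigs. Of the 7 endothelial entries 1 was tested and not called. The part of these cells and responses in the values of the proteasome genes was not tested.

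The assembly chaperones PSMG3 and PSMG4 pair with each other and help the alpha ring to close. PSMG3 (chr3:1167385-1168908) stood at 6.63, 6.84, 9.56, 5.51 and 7.56 FPKM in lean and 12.2, 9.37, 11.7, 10.04 and 14.5 FPKM in obese pigs. Lean pig-413 lay just above obese pig-473, and the other lean pigs lay below every obese pig. The means were 7.22 ± 1.503 and 11.6 ± 2.02 FPKM (SD, n = 5 each), a log2 fold change of 0.61 ± 0.15 (SE), the highest of the 34 entries, with an adjusted p of 0.108 in limma. Its partner PSMG4 stood at 5.58, 9.13, 7.58, 5.23 and 9.86 FPKM in lean and 7.83, 6.49, 7.77, 8.77 and 9.60 FPKM in obese pigs, with a log2 fold change of 0.13 ± 0.17 (SE). With the libraries of pig-572 averaged, the obese pigs lay within the range of the lean pigs. Those libraries stood apart at 6.85 and 12.3 FPKM, the second above every lean pig.

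**Figure D5:**
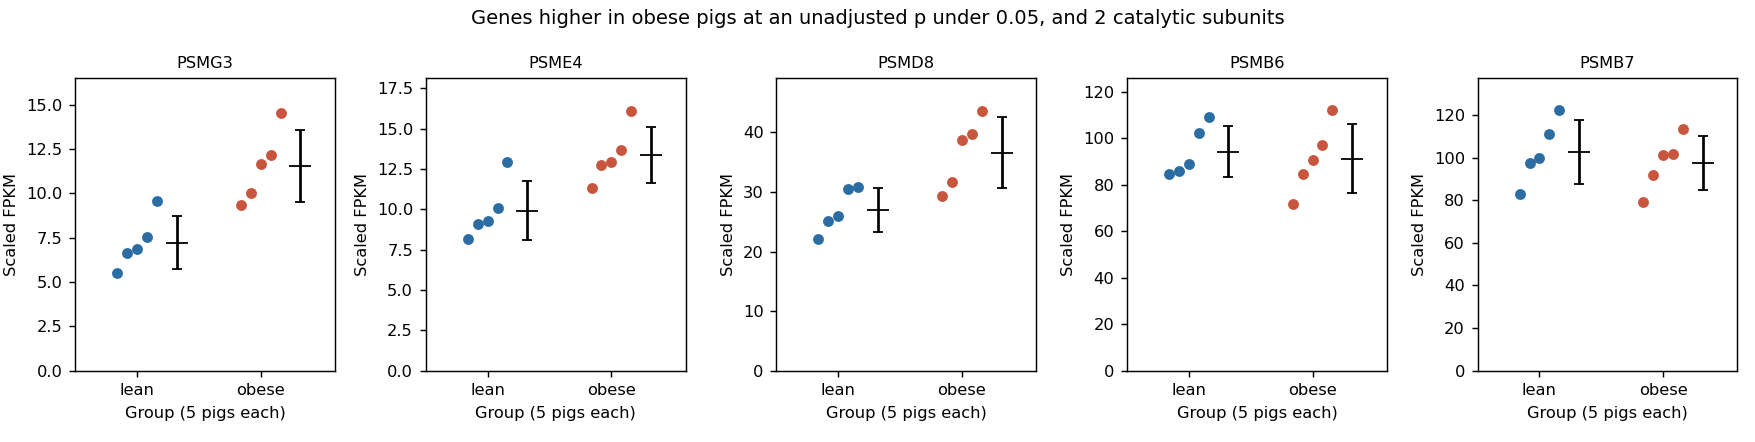
Scaled FPKM in 5 lean and 5 obese pigs of the 3 genes higher in obese pigs at an unadjusted p under 0.05 (PSMG3, PSME4 and PSMD8) and of the catalytic subunits PSMB6 and PSMB7, each axis starting at 0, with points for pigs sorted by level and bars for the mean ± SD. The groups overlap in all 5 panels, by 1 lean pig in PSMG3 and PSME4 and over nearly the whole range in PSMB6 and PSMB7.

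Partners of the proteasome were read as a list, with 19 entries tested. At an unadjusted p under 0.05 in limma 3 were higher in obese pigs and 2 lower (26.3%, beside 20.8% of all genes), 3 did not overlap between the groups (beside 4.13% of all genes), and 0 passed after adjustment. NFE2L1, the transcription factor that raises proteasome genes when the proteasome falls short, has 2 entries, at 64.7 and 23.1 FPKM in lean and 103 and 39.2 FPKM in obese pigs, with log2 fold changes of 0.68 ± 0.18 and 0.76 ± 0.18 (SE), adjusted p-values of 0.124 and 0.109 in limma, and no overlap between the groups in either. USP14, which trims ubiquitin chains at the regulatory particle, had a log2 fold change of 0.36 ± 0.13 (SE) without overlap, and its adjusted p was 0.182 in limma. The related factor NFE2L2 (-0.32 ± 0.14) and the proteasome activator ZFAND5 (-0.72 ± 0.28 in the entry called) were lower. POMP, which guides assembly of the core particle, was at 172 FPKM in lean and 149 FPKM in obese pigs, with a log2 fold change of -0.20 ± 0.16 (SE).

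Of 16 genes for ubiquitin and the delivery of substrates, 3 were higher in obese pigs at an unadjusted p under 0.05 in limma and 1 was lower (25%, beside 20.8% of all genes), and 0 passed after adjustment. NPLOC4 (log2 fold change 0.36), which works with the segregase VCP, UBQLN4 (0.34), a shuttle to the proteasome, and UBA1 (0.31), the main ubiquitin-activating enzyme, were higher. RPS27A (-0.54), which encodes ubiquitin fused to a ribosomal protein, was lower.

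Genes of interferon signalling and class I presentation, 14 entries tested, had 0 higher and 4 lower in obese pigs at an unadjusted p under 0.05 in limma (28.6% in both directions together, beside 20.8% of all genes), with 0 after adjustment and 1 (CALR) without overlap, beside 4.13% of all genes. Of the 14, 13 had a log2 fold change below 0, with a median of -0.30. The 4 were the kinase JAK2 (-0.30), the interferon gamma receptor chain IFNGR1 (-0.31) and the chaperones CALR (-0.33) and CANX (-0.30). IRF1, a transcription factor of the immune subunit genes, was at 35.1 ± 20.7 FPKM in lean and 14.5 ± 12.9 FPKM in obese pigs (SD, n = 5 each). The groups overlapped, at 15.6 to 62.2 FPKM in lean and 1.15 to 29.2 FPKM in obese pigs. Its log2 fold change was -1.66 ± 0.75 (SE) with an adjusted p of 0.240 in limma, and it was not called. The 2 entries of B2M, the light chain of class I molecules, had log2 fold changes of -0.45 and -0.50, and neither was called. TAP1 is not a name in the tables.

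DNA methylation near these genes was looked up in the regions the authors listed between obese and lean pigs, as group means without values per pig. Their lists hold more regions than the paper counts past its thresholds. The p-values of the regions were not used here, so a listed region need not be among those counted. Those lists cover more pigs than the RNAseq and, by the paper, include sows, whereas the RNAseq pigs are all male. Within 5000 bases of a locus, each of 3 tables had a region for 1 of the 40 entries (2.5%), where 11.3% of all genes had an mDNAcap region, and 5.83% and 1.70% an RRBS region with at least 3 and 5 pigs per group. In mDNAcap, which captures methylated DNA on beads, the region chr17:69081701-69082700 lay 2308 bases from PSMA7, with an authors' mean of 15.3 normalized reads in obese and 9 in lean pigs, hyper-methylated in obese pigs. The unnamed PSMA5 entry on chromosome 4, outside the naming rule, held the mDNAcap region chr4:121222501-121223500 with authors' means of 7.27 in obese and 12.9 in lean pigs, hypo-methylated in obese pigs. Pig-411, labelled obese, stands among the lean libraries of that table. In RRBS, bisulfite sequencing of CpG-rich fragments, a region of 10 CpGs within PSMG4 (chr7:2048459-2048681) had authors' means of 79.1% in obese and 92.1% in lean pigs, and a region of 18 CpGs lying 423 bases outside the PSMG4 locus (chr7:2040637-2040775) 14.4% and 25.5%, both hypo-methylated in obese pigs. The region of 10 CpGs comes from the list with at least 3 pigs per group, which the paper describes as less stringent. That of 18 CpGs comes from the list with at least 5. By the paper, a methylation level in RRBS needed at least 5 reads. The depth behind each of these means is otherwise unknown, and the regions were chosen by the authors for their difference, so that no test is given. In the RNAseq males alone, PSMA7 and PSMG4 had log2 fold changes in RNA of 0.06 and 0.13, and neither was called.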

How the data were processed

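RNAseq of mature adipocytes from 5 lean and 5 obese male pigs was used, with groups from the labels. The authors mapped 100-base paired reads of stranded, ribosome-depleted libraries to Sscrofa10.2 with STAR 2.3.1 and Ensembl 70 and deposited FPKM with bounds for each library from cufflinks 2.2.0. For mDNAcap the authors deposited group means of a signal, read counts divided by a constant per library (diffReps). For RRBS they deposited methylation as a fraction per region and group (metilene), printed here in percent. Coordinates are those of the tables. The authors' comparison columns hold fold changes and p-values and were not used, nor were 2 columns of per-animal values that name no animal.

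Of 25337 entries, the 52 that share an identifier with an earlier entry were added to it, giving 25285 genes. Genes with a failed estimate (9) were left out. Libraries were scaled by median-of-ratios size factors and those of pig-572 averaged. A filter at a mean FPKM of 1 left 10246 genes for the test in limma 3.58.1 (R 4.3.3, empirical Bayes with a trend), on log2(FPKM + 1), which understates changes of low genes. The adjusted p is by Benjamini-Hochberg over all of them with a threshold of 0.05. The fit was tested on simulated data. The deposited labels name no batch and do not say how pigs were processed together. The p-values weigh a group difference against the spread between pigs, which the fit moderates over all genes tested. The read depth of a library is unknown from FPKM. Tables and figures were made with Python 3.11.15, numpy 2.4.6, pandas 2.3.3 and matplotlib 3.10.9.

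Values in every pig are given for PSMB6, PSMB7 and the immune subunits, the 3 highest and 3 lowest members, and members with an unadjusted p under 0.05 or without overlap between groups. Genes of the partner, ubiquitin and interferon lists are named with an unadjusted p under 0.05 (at most 6 a list), plus NFE2L1, POMP, IRF1, TAP1 and B2M, and regions within 5000 bases of a member. A further gene that the rule takes is not reported here. PSMD14, PSMD4, PSME3, PSMD11, PTPRC, CD163, PLIN1, DPT, HSPB1, FOS, JUNB, JUN, IER2, IER3, FAM158A and IFITM1 were added after their values were seen. The members, their classes and the gene lists were chosen with earlier results of these data known. Alternatives were another scaling or none, a pseudocount of 0.1, no filter or a mean of at least 5, either library of pig-572 or both apart, limma without trend, leaving out each pig, and, added after the data were seen, summing entries of the same name.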

Additional observations from a re-analysis of the deposited data

Results flagged for a closer look

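Each group of 5 pigs was checked in the 34 tested entries, 68 groups of values in all, for a pig whose gap to its neighbour took up most of the range of the group, by Dixon's 95% limit. It marked 3 values, no more than the share of about 1 in 20 groups that chance marks. All 3 belong to lean pig-525, and because many entries vary together over pigs they are not separate findings. PSMA1, an alpha subunit of the core particle, stood at 110.4 FPKM in that pig, against 56.25 to 71.3 FPKM in the other lean pigs. PSMD7, a lid subunit of the regulatory particle, stood at 21.6 FPKM, against 15.67 to 16.98 FPKM, and PSMD3, also of the lid, at 20.39 FPKM, against 14.83 to 16.37 FPKM. Pig-525 lay above the median of the 10 pigs in 29 of the 34 entries.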

How the results depend on the processing

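Of 34 entries, 0 passed the adjusted threshold in every alternative but the fit that took both libraries of pig-572 as replicates and so counted that animal more than once: there 2 passed, PSME1 (-0.99) and PSMG3 (0.67), both at an adjusted p of 0.0471 in limma, with 176 genes in all and 5 members lower at an unadjusted p under 0.05. Over the alternatives the adjusted p of PSME1 ran from 0.0471 to 0.237 and that of PSMG3 from 0.0471 to 0.235. Leaving out each pig in turn gave 0 adjusted calls, 3 to 6 members higher (6 without lean pig-525) and 2 to 7 lower (7 without lean pig-402) at an unadjusted p under 0.05, and 1 to 4 without overlap (4 without lean pig-402, 3 without obese pig-473 and 2 without lean pig-413, lean pig-525 or obese pig-433), beside 7.51% to 13.0% of all genes higher, 6.74% to 13.5% lower and 4.48% to 10.4% without overlap. PSME1 was without overlap in all of these fits. Without scaling 2 members were without overlap, PSME1 and PSMG3, and the median of all genes was -0.015. The upper quartile scaling gave 3 higher and 2 lower, against 3 and 3 with size factors. Without a filter the immune median was -0.30, with the scarce PSMB8 entries in it. Leaving out pigs moved the core median from -0.12 to 0.03, the regulatory median from -0.07 to -0.0046, the immune median from -0.71 to -0.54, the assembly median from 0.28 to 0.44 and that of all genes from -0.0028 to 0.0018 (the last without lean pig-525). PSMB6 ran from -0.13 to 0.028 and PSMB1 from -0.050 to 0.057 in those fits, changing sign in 2 and 5 of them. The cause of these shifts was not tested.

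No paired analysis was possible because lean and obese RNAseq pigs share no number, and the numbers shared in the labels tie assays of the same pig. The precision of the values is limited by the spread between pigs and, for scarce genes such as PSMB8, by a depth that FPKM do not show.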
